A study of Rattus norvegicus with 48 samples.

Results

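The 100 genes described here are those that differed most, in the same direction in both sexes, between rats that had received methamphetamine and rats that had received saline, when hearts were taken after 30 days of abstinence. They were chosen from 32883 Ensembl genes in these steps. Genes with a mean normalized count of at least 50 were kept, which left 10701. Another 293 were left out because their log2 values had an absolute Pearson r of 0.6 or more with Arntl over the abstinence libraries, so 10408 genes were ranked. For each sex, the ratio log2 (mean methamphetamine + 1)/(mean saline + 1) was taken after abstinence. The 50 genes with the highest smaller ratio of the 2 sexes are called raised members, and the 50 with the lowest larger ratio are called lowered members. Values after abstinence selected the genes and are given as a description, without a test. Values at day 11 entered the selection only through the mean normalized count, which was taken over libraries of both time points. The ratios and the correlation did not use them, and they were tested.

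RNA of the left ventricle was sequenced from 48 Sprague Dawley rats, aged 8 weeks when treatment began, and the 47 libraries in the tables are described here. Females and males received methamphetamine, a psychostimulant, at 5 mg/kg once a day under the skin for 10 days, or saline on the same schedule. Hearts were taken at day 11, which is 24 h after the last injection, or 30 days after it without further drug, which gives 8 groups. No group carried a genetic modification, and the hearts of all groups were collected in the morning. Between 6661581 and 11314050 reads fell on genes in a library, with a median of 9020989. Libraries of the 2 time points were sequenced in separate pools, so time point and pool cannot be told apart. The rat numbers in the labels form a pair of number ranges. Male day 11 saline rats all came from the lower range and the methamphetamine-treated ones all from the higher. Number range and treatment are confounded there and cannot be told apart. The ranges were also uneven among the female abstinence libraries that the rule used. The lower range held 3 methamphetamine and 1 saline library, and the higher held 2 and 4. By the study's methods, litters were spread over the groups.

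In 8 of the 47 libraries, the genes of the other sex than the labelled one were found, and all 8 were replicate 5 of their group. This rests on 4 genes of labelled males and 2 genes of labelled females. Replicate 5 was therefore left out of the rule and of the tests, which leaves 39 libraries, 19 at day 11 and 20 after abstinence. There were 5 libraries per group, and 4 for saline-treated females at day 11. Where a call named below was lost with replicate 5 included, this is said beside it.

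Arntl encodes BMAL1, the transcription factor that pairs with CLOCK to drive the circadian clock. The heart has such a clock of its own, and a large share of its RNAs rise and fall over the day. Extracellular matrix genes form another class that is relevant here: elastin and fibrillin give the ventricle and its vessels elasticity, and lysyl oxidases cross-link these fibres. Glucose is a second fuel of the heart beside fatty acids.

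The files do not pair Ensembl identifiers with names, and symbols were at hand for 328 genes. Only 5 members were among them, all lowered: Spon2 (rank 4), Hlx (rank 9), LOC108348049 (rank 18), Pfkfb2 (rank 38) and Loxl1 (rank 43). Spon2 encodes a secreted spondin of the extracellular matrix. Loxl1 encodes a lysyl oxidase that cross-links elastin. Hlx is a homeobox transcription factor. Pfkfb2 encodes the heart form of the enzyme that makes the sugar phosphate activating phosphofructokinase. These 5 symbols come from the study's list of genes changed in females at day 11, so their female day 11 change is not independent evidence. The 45 unnamed lowered members are therefore also counted alone, and further members are given by their rank in the rule.

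The promoters of 4 of the 5 named members were matched to RefSeq by symbol. They are shown because these genes were among the lowered members that changed at day 11, when Arntl was also far lower. Each sequence holds 250 bases before and 50 bases after the start of the gene, in build GRCr8, and capitals mark AGGTCA, the core of the element bound by the REV-ERB and ROR receptors of the clock. Both strands were searched for it and for CACGTG, the E-box bound by BMAL1 and CLOCK. Spon2 lies on the plus strand at chr14:81736466-81736765, Loxl1 on the minus strand at chr8:67612175-67612474, Hlx on the minus strand at chr13:98817215-98817514 and Pfkfb2 on the minus strand at chr13:44726922-44727221.
Spon2: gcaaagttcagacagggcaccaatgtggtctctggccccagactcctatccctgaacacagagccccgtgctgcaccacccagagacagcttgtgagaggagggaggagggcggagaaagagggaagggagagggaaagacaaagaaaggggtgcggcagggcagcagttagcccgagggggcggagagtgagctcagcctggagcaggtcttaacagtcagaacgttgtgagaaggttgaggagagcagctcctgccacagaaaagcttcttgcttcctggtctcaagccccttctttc
Loxl1: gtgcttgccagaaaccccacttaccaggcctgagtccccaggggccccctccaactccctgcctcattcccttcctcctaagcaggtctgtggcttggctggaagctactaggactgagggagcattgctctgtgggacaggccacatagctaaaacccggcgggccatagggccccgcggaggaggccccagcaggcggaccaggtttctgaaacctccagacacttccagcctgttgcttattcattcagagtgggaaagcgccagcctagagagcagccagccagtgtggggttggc
Hlx: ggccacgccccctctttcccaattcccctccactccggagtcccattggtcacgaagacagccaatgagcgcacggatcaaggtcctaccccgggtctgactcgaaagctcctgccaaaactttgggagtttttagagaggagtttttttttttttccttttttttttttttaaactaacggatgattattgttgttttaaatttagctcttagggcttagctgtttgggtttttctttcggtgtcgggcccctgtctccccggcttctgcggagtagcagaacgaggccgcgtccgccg
Pfkfb2: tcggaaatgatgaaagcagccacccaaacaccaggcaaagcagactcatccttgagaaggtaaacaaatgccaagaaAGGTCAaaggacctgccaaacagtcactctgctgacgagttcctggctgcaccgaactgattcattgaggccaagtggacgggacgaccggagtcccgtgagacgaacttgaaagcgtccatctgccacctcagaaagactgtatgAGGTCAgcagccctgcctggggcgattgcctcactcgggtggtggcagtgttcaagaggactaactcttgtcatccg
CACGTG was in none of these 4 windows, and 6.42% of all 33469 promoters of that length held it. AGGTCA was in 1 of the 4, that of Pfkfb2, with 2 matches whose first bases lay at -173 and -27 from the start of the gene, and 16.2% of all promoters held it. A match describes letters only and is not a binding site.

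The ratios after abstinence were small. For raised members the smaller of the 2 ratios was 0.75 on the log2 scale at rank 1, had a median of 0.26 and was 0.21 at rank 50. For lowered members the larger ratio was -0.56 at rank 1, had a median of -0.24 and was -0.20 at rank 50. Of the members, 2 raised and 0 lowered ones differed by 1.5-fold or more in both sexes. The limit of the rule cut through a dense range of values, since the next gene past it had 0.2070 against 0.2073 at rank 50 among the raised and -0.1995 against -0.2000 among the lowered. Members were less abundant than ranked genes in general, with a median mean normalized count of 101 for raised and 148 for lowered members, against 263 for all ranked genes.

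**Figure D1:**
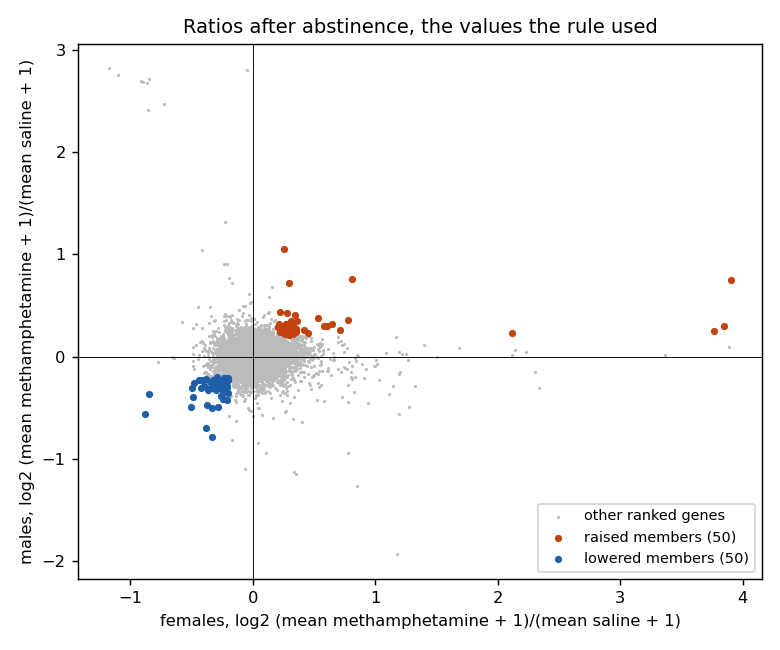
Ratios after abstinence in females (x axis) and males (y axis), both as log2 (mean methamphetamine + 1)/(mean saline + 1), for the 10408 ranked genes in grey, the 50 raised members in red and the 50 lowered members in blue. The members sit just outside the central cloud, and 4 raised members reach female ratios of 2.12 to 3.91.

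Groups mostly overlapped after abstinence. In females, methamphetamine and saline libraries did not overlap for 1 raised member, against 0.259% of ranked genes higher with methamphetamine, and for 2 lowered members, against 0.231% lower. In males this held for 3 raised members (0.653% of ranked genes) and for 5 lowered members (0.538%), Spon2 among the latter. The 3 raised members include rank 27, a gene of labelled females whose few male reads are given below. The values behind these counts were used to choose the members. The labelled pairs of replicate 5, which the rule did not use, gave 1 methamphetamine and 1 saline library per labelled sex and no replicate check. In the pair labelled female, 26 of 50 raised members were higher with methamphetamine, against 47.7% of ranked genes, and 18 of 50 lowered members were lower, against 52.3%. In the pair labelled male, 32 of 50 raised members were higher, against 46.9%, and 29 of 50 lowered members were lower, against 53.1%. The treatment labels of these libraries, which went against their labelled sex, could not be checked. By these labels, Spon2 was 1.35 and 1.41 higher with methamphetamine on the log2 scale in the pairs labelled female and male, and Loxl1 1.18 and 1.54 higher, whereas the rule chose both genes as lower.

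Membership depended on single libraries. With each abstinence library left out in turn, between 28 and 45 of the 50 raised members and between 26 and 44 of the 50 lowered members were selected again. Leaving out methamphetamine-treated male replicate 6 kept the fewest lowered members, 26. Leaving out methamphetamine-treated male replicate 1 or saline-treated male replicate 6 kept the fewest raised members, 28.

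Although genes strongly correlated with Arntl had been left out, the members were not free of covariation with it after abstinence. Over 20 libraries, r with Arntl ranged from -0.57 to 0.14 for raised members, with a median of -0.37, and 44 of 50 were negative. For lowered members it ranged from -0.12 to 0.60, with a median of 0.37, and 48 of 50 were positive. The median over ranked genes was 0.02. The same libraries chose the members for a treatment difference. Mean Arntl there was lower with methamphetamine, at 241 against 324 normalized counts in females and 268 against 540 in males. The signs of r therefore follow in part from the choice, and r within groups after abstinence is not given here. These points also share libraries. Arntl ranged from 177 to 490 in methamphetamine-treated males after abstinence and from 482 to 620 in saline-treated males. In females the ranges were 91.6 to 429 with methamphetamine and 190 to 542 with saline, so the groups overlapped in both sexes. Of 19 clock genes on a fixed list 12 had an identifier, and 0 of these were members.

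Ranks 2, 12 and 29 of the raised set owed their female ratios of 3.91, 3.85 and 3.76 to a single heart. In methamphetamine-treated female replicate 6 after abstinence, their normalized counts were 1747, 2021 and 1294. The highest value in the other 38 libraries was 70.6, 88.2 and 49.8. Without that heart the female ratios were 0.75, 0.84 and 0.64. The 3 genes were ranked only through that heart, which lifted their means over the 39 libraries to 72.3, 83.5 and 51.3. In the other groups their means were at most 44.6, 39.3 and 27.3, under the limit of 50. Over all 39 libraries, r among the 3 genes was between 0.92 and 0.95. At day 11, where that heart has no part, r was between 0.84 and 0.92 over 19 libraries. Ptprc, which encodes the leukocyte surface protein CD45, was the only one of 20 leukocyte markers with an identifier. It was 307 in that heart and highest, at 664, in replicate 3 of the same group; the part of leukocytes in this result was not tested.

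At day 11 these 3 raised members fell with methamphetamine in females, against the direction of the rule. Rank 2 had normalized counts of 12.2, 43.1, 54.0 and 69.0 in saline-treated and of 9.49, 11.5, 12.5, 16.8 and 21.1 in methamphetamine-treated females. The groups overlapped through 1 saline library. The log2 fold change was -1.63 ± 0.38 (SE) with an adjusted p of 0.0172 in edgeR's quasi-likelihood test. For ranks 12 and 29 it was -1.09 ± 0.35 and -1.31 ± 0.35, with adjusted p of 0.0901 and 0.0358 in the same edgeR test. The female calls of ranks 2, 12 and 29 were lost in 2, 9 and 5 of 15 alternatives. Their adjusted p in females was 0.139, 0.474 and 0.431 in edgeR with replicate 5 included.

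Lowered rank 1 fell into separate low and high ranges. ENSRNOG00000047706 (rank 1) had 9.04 to 49.4 normalized counts in 26 libraries and 161 to 282 in the other 13. After abstinence, 5 of 5 libraries of saline-treated and 3 of 5 of methamphetamine-treated males were high, and in females 3 of 5 and 1 of 5 in the same order. At day 11 only 1 of 19 libraries was high, replicate 6 of the methamphetamine-treated males, at 229. Rank 2 was higher in the same libraries, without such a gap, with a median of 312 in the 13 high libraries (253 to 502) and 117 in the 26 low ones (78.0 to 211). The r between both was 0.90 over 39 libraries. An inner gap of more than 1 on the log2 scale with at least 5 libraries on each side occurred in 7 of 10408 ranked genes, 2 of them members.

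The other member with such a gap was rank 27 of the raised set, a gene of labelled females. It had 174 to 530 normalized counts in females and 0 to 18.3 in males. Its male ratio of 1.05 after abstinence came from 1 read in each methamphetamine-treated library and 0 reads in each saline-treated one. It did not pass the filter on low counts in males at day 11, where 49 of 50 raised members were tested, and its change in females there was 0.04 ± 0.08 (SE) on the log2 scale.

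**Figure D2:**
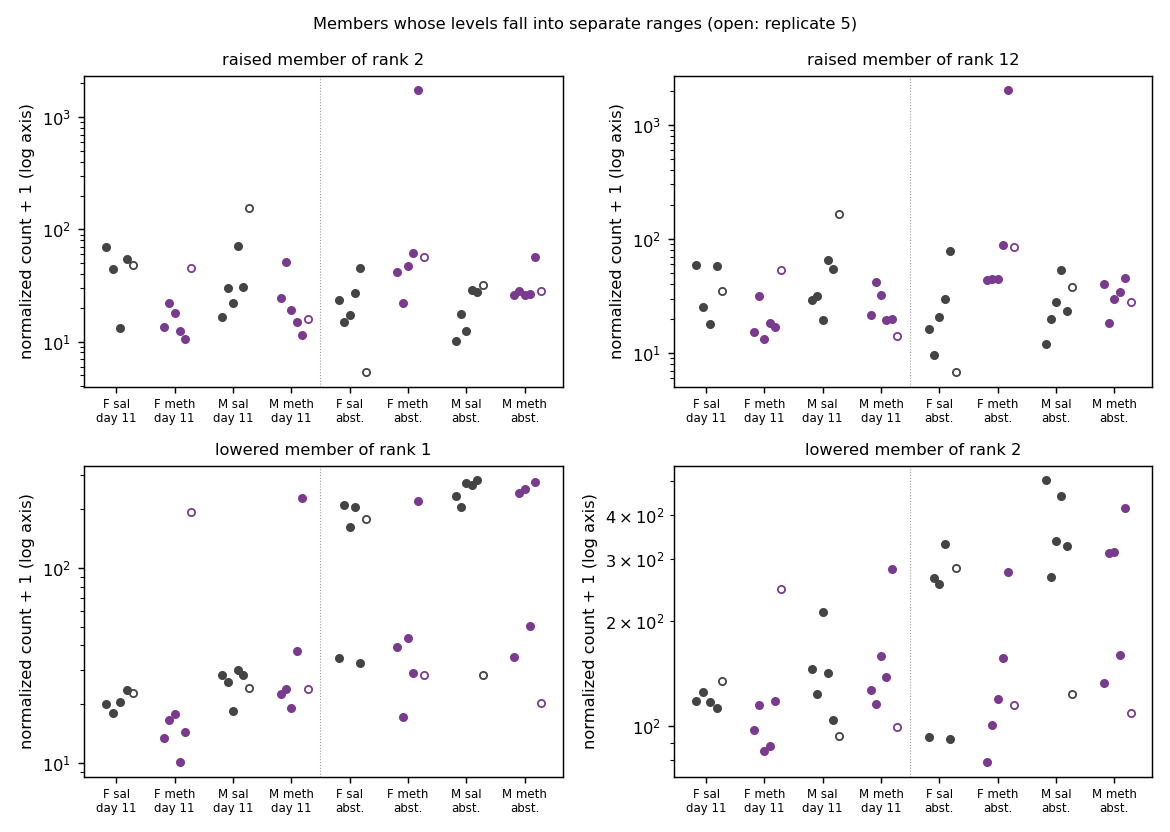
Normalized count + 1 on a log axis for raised ranks 2 and 12 and lowered ranks 1 and 2 in each library of the 8 groups (F, female; M, male; abst., after abstinence; open circles, replicate 5). For the raised pair, 1 female methamphetamine heart at 1747 and 2021 stands above all others, and for lowered rank 1 libraries lie either below 50 or between 161 and 282.

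At day 11, 18 of 50 raised and 10 of 50 lowered members passed the test of methamphetamine against saline over both sexes. Sex was a term of that fit. Among them, 13 raised members were called higher and 5 lower at an adjusted p under 0.1 in edgeR. Of all 14343 genes tested, 10.1% were called higher and 10.1% lower. Of the lowered members, 9 were called lower and 1 higher. Among the 45 lowered members without a symbol, 5 were called lower. Genes named in the study's tables are left out of these 45 but not out of the 10.1%, so this count cannot be set against that share. The median log2 fold change was 0.21 for raised members, -0.12 for lowered members and -0.01 for all genes tested, and 37 of 50 raised and 13 of 50 lowered members had a value above 0, against 48% of genes tested. Among ranked genes alone, which share the lowest mean, 12.2% were called higher and 9.76% lower. With replicate 5 included, 1 raised member was called higher and 2 lower, so the excess of raised members called higher was not kept. In the same fit, 6 lowered members were called lower and 1 higher. The count of all genes called also fell there and is given in the section on processing.

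In females at day 11, 5 raised members were called higher and 6 lower, against 4.28% and 5.16% of 13986 genes tested. Of the lowered members, 2 were called higher and 9 lower, 4 of the latter among the 45 without a symbol. When replicate 5 was included, 4 raised members were called higher and 2 lower in females, and 2 lowered members higher and 5 lower. Fewer genes were called in that fit as a whole, as given in the section on processing without a split by direction. These counts with replicate 5 therefore cannot be set against the 4.28% and 5.16%. In males, 5 raised members were called higher and 1 lower, against 3.37% and 3.17% of 13887 genes, and 1 lowered member was called higher and 4 lower. The median changes in females and males were 0.11 and 0.26 for raised and -0.14 and -0.11 for lowered members, on the log2 scale. With replicate 5 included, edgeR called 0 genes in males, where 2020 of 13753 had an unadjusted p under 0.05. The 3 members called in each sex fitted alone were Spon2, Loxl1 and lowered rank 44. The share of all genes called in each sex alone is not given here, so whether 3 is many cannot be judged. Lowered rank 44 was -0.32 ± 0.10 in females and -0.38 ± 0.10 in males on the log2 scale (SE). The calls of lowered rank 44 were lost in 10 of 15 alternatives in females and in 8 of 16 in males, in each sex also with replicate 5. A same sign in both sexes was found for 32 of 49 raised members on the higher side, against 33.8% of ranked genes, and for 27 of 50 lowered members on the lower side, against 32.3%. Female libraries of the 2 groups did not overlap for 6 raised members on the higher side (5.83% of ranked genes) and 7 lowered members on the lower side (4.26%). In males this held for 5 raised (5.45%) and 3 lowered members (3.49%). On the side against the rule, it held in females for 0 raised (4.26%) and 2 lowered members (5.83%). In males these counts were 0 raised (3.49%) and 2 lowered members (5.45%).

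**Figure D3:**
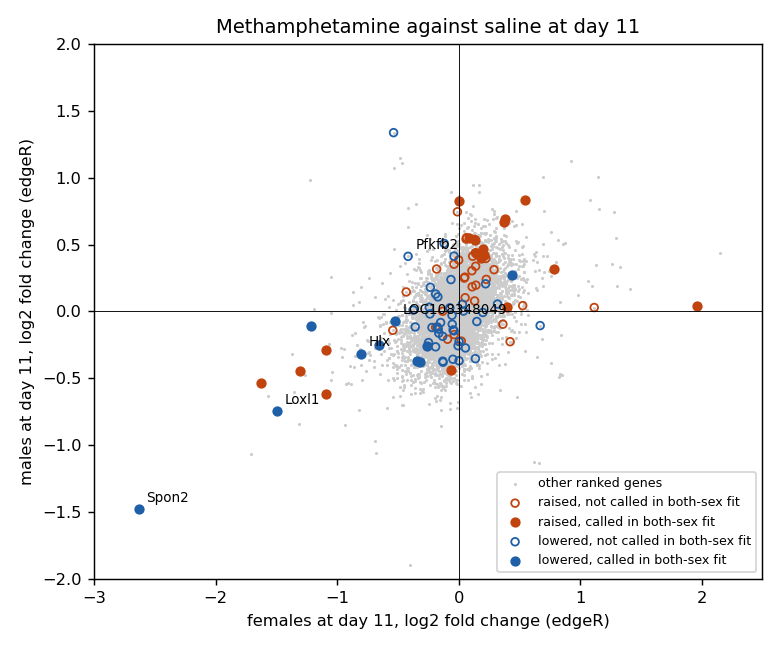
Log2 fold change of methamphetamine against saline at day 11 in females (x axis) and males (y axis) from edgeR, for ranked genes in grey, raised members in red and lowered members in blue. Filled circles passed an adjusted p of 0.1 in the fit of both sexes, Spon2 lies farthest from 0 among the members, at -2.63 and -1.48, and raised ranks 1, 2, 12 and 29 lie below 0 in both sexes.

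Spon2 had the largest change of all members in females and in both sexes together. In females at day 11 its normalized counts were 134, 153, 172 and 191 with saline and 17.7, 23.0, 24.9, 30.9 and 33.5 with methamphetamine. In males they were 58.8, 63.4, 79.7, 82.8 and 102 with saline and 21.6, 23.2, 23.7, 33.2 and 38.2 with methamphetamine. The groups did not overlap in either sex, and saline-treated females were the highest group. Spon2 changed by -2.63 ± 0.16 in females (adjusted p 4.71e-08) and by -1.48 ± 0.19 in males (adjusted p 0.00596) on the log2 scale in edgeR. The difference between the sexes was -1.15 ± 0.27, with an adjusted p of 0.0592 in edgeR, and it was not called in 10 of 25 alternatives, among them with replicate 5 included (adjusted p 0.652). With replicate 5 included, the change was -2.10 in females and -0.89 in males, the latter with an adjusted p of 0.293. After abstinence the means were 110 ± 23.2 and 84.6 ± 38.4 (SD, n = 5) in saline- and methamphetamine-treated females, which overlapped, and 75.1 ± 16.8 and 45.8 ± 7.0 in males, which did not.

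Loxl1 fell in both sexes at day 11. In females the normalized counts were 336, 366, 444 and 484 with saline and 127, 132, 138, 153 and 175 with methamphetamine. In males they were 302, 318, 345, 432 and 489 with saline and 139, 144, 277, 282 and 287 with methamphetamine, in 2 clusters. No libraries overlapped between treatments. The log2 change was -1.49 ± 0.12 in females (adjusted p 1.29e-06) and -0.75 ± 0.21 in males (adjusted p 0.0812) in edgeR. The male call was lost in 8 of 16 alternatives, among them with replicate 5 included (adjusted p 0.259). The difference between the sexes was -0.75 ± 0.27 and was not called (adjusted p 0.336, edgeR). After abstinence the means were 279 ± 41.9 and 242 ± 33.9 in females and 310 ± 38.3 and 254 ± 32.1 in males (SD, n = 5), saline first.

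Loxl1 was 1 of 4 genes with an identifier on a list of 15 fibroblast and matrix genes. All 4 were called lower with methamphetamine in each sex at day 11. The calls in males were all lost with replicate 5 included, where edgeR called no gene in males. Eln, which encodes elastin, changed by -2.14 ± 0.08 in females and -1.12 ± 0.16 in males, Fbn1, which encodes fibrillin, by -1.05 ± 0.09 and -0.51 ± 0.15, and Mmp14, a matrix metalloproteinase, by -1.80 ± 0.09 and -0.89 ± 0.14 on the log2 scale. These symbols also come from the study's tables of changed genes. In such bulk tissue, fewer cells of a type and less RNA per cell cannot be told apart. Pdgfrb, a pericyte receptor, changed by -0.33 ± 0.08 in females and -0.11 ± 0.10 in males. Myl4, an atrial myosin light chain, ranged from 52.2 to 810 in saline-treated and from 26.6 to 49.9 in methamphetamine-treated females, and its part in these results was not tested. Of 11 ventricular cardiomyocyte markers 0 had an identifier, so the tissue label could not be checked this way.

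Hlx fell in females. Its normalized counts at day 11 were 132, 139, 178 and 210 with saline and 71.0, 84.1, 96.9, 100 and 119 with methamphetamine, without overlap. In males they were 125, 132, 153, 166 and 179 with saline and 111, 116, 117, 123 and 137 with methamphetamine, with overlap. The log2 change was -0.80 ± 0.16 in females (adjusted p 0.00514), -0.32 ± 0.11 in males (adjusted p 0.127) and -0.54 ± 0.11 in both sexes (adjusted p 0.00291) in edgeR. The difference between the sexes was not called, with an adjusted p of 0.422 in edgeR. LOC108348049 had 155 to 204 normalized counts in saline-treated and 89.7 to 167 in methamphetamine-treated females. Its change was -0.52 ± 0.14 there (adjusted p 0.0416, edgeR) and -0.07 ± 0.11 in males (adjusted p 0.732). The female call was lost with replicate 5 included (adjusted p 0.136, edgeR).

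For Pfkfb2 the change with methamphetamine at day 11 differed between the sexes. In females its normalized counts were 926, 933, 938 and 1046 with saline and 627, 632, 705, 733 and 912 with methamphetamine, without overlap. In males they were 512, 574, 751, 758 and 821 with saline and 717, 870, 915, 1019 and 1028 with methamphetamine, and the groups overlapped. The log2 change was -0.42 ± 0.09 in females (adjusted p 0.0138) and 0.41 ± 0.13 in males (adjusted p 0.104, not called) in edgeR. The difference between the sexes was -0.83 ± 0.18 with an adjusted p of 0.0314, and it was called in 24 of 25 alternatives. In males the treatments also differ in rat number range, so drug and number range cannot be told apart in this difference. After abstinence Pfkfb2 was lower with methamphetamine in both sexes by the rule, at 1064 ± 130 against 784 ± 110 in females and 945 ± 105 against 809 ± 146 in males (SD, n = 5).

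**Figure D4:**
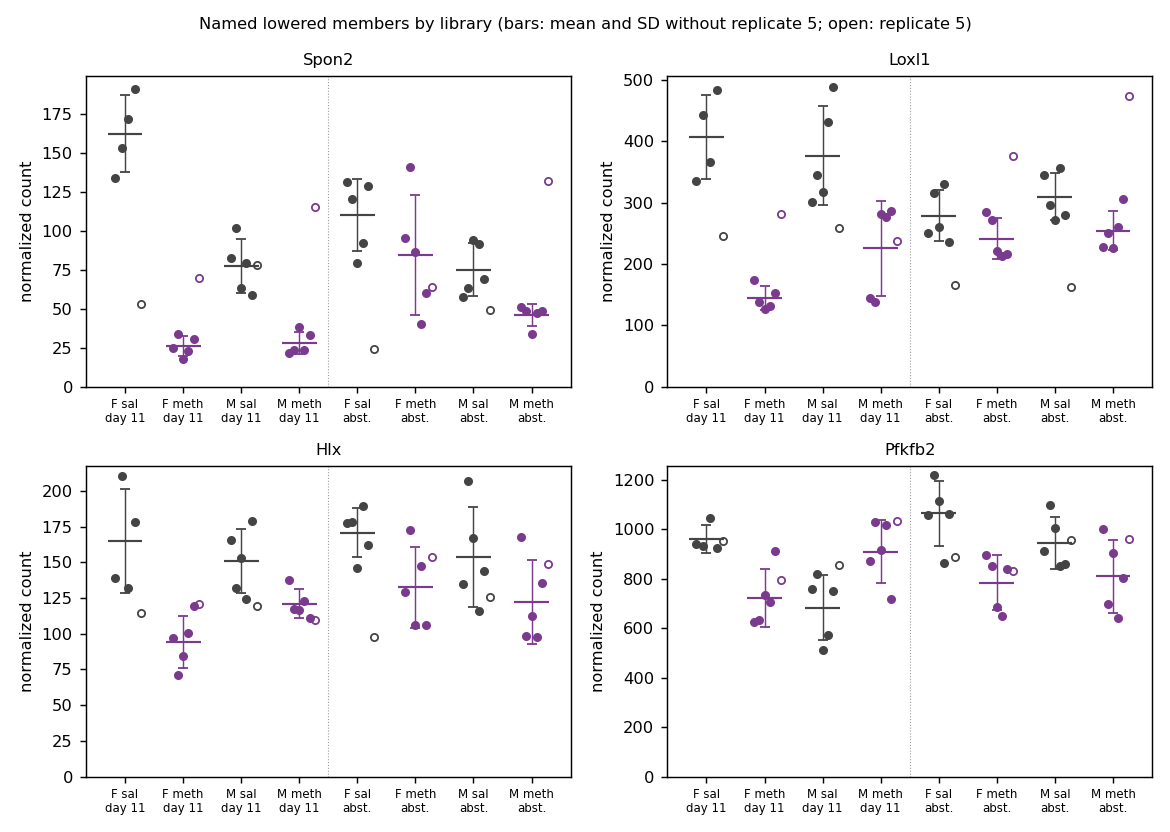
Normalized counts of Spon2, Loxl1, Hlx and Pfkfb2 by library in the 8 groups (F, female; M, male; abst., after abstinence; grey, saline; purple, methamphetamine), with lines and bars for mean and SD without replicate 5 and open circles for replicate 5. Without replicate 5, Spon2 and Loxl1 separate by treatment at day 11 in both sexes. With it they overlap, as Spon2 was 116 in male methamphetamine replicate 5 and Loxl1 258 in male saline replicate 5. Pfkfb2 changed by -0.42 in females and 0.41 in males, the latter not called.

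Arntl itself fell with methamphetamine at day 11, so r with it over all libraries holds the treatment difference that both genes show. Arntl was 521 to 733 in saline-treated and 13.4 to 22.1 in methamphetamine-treated females, and 122 to 353 and 39.3 to 85.8 in males. Over 19 libraries r with Arntl was 0.90 for Spon2, 0.84 for Loxl1, 0.74 for Hlx and 0.30 for Pfkfb2. In males Pfkfb2 changed by 0.41, which was not called, and Arntl by -1.76 on the log2 scale. Within groups, after each group's mean was subtracted, r with Arntl was 0.30, -0.08, -0.50 and 0.22 for these genes in the same order. The part of Arntl in these changes was not tested. An absolute r of 0.6 or more at day 11 was found for 8 of 50 lowered and 1 of 50 raised members, and for 6.74% of ranked genes.

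Among members without a symbol, ENSRNOG00000022637 (raised rank 10) rose at day 11. In males it had 33.5, 46.3, 51.5, 67.1 and 83.0 normalized counts with saline and 95.8, 96.4, 97.3, 98.9 and 121 with methamphetamine, without overlap. In females it had 39.1, 67.3, 76.5 and 93.2 with saline and 84.6, 90.2, 102, 110 and 123 with methamphetamine, with overlap. The change in both sexes was 0.70 ± 0.14 on the log2 scale (adjusted p 0.00233, edgeR), and it was called in all 25 alternatives. The call in males was lost in 3 of 16, among them with replicate 5 included (adjusted p 0.254, edgeR). ENSRNOG00000014011 (lowered rank 30) had 524 to 616 with saline and 400 to 471 with methamphetamine in males, and 476 to 714 and 397 to 570 in females. Its change in both sexes was -0.36 ± 0.08 (adjusted p 0.00342, edgeR), called in all 25 alternatives as well, while the call in males was lost with replicate 5 included (adjusted p 0.271). In contrast, ENSRNOG00000020263 (raised rank 1) changed by -0.58 ± 0.23 at day 11 (adjusted p 0.0927, edgeR), against the direction of the rule, and this call was lost in 14 of 25 alternatives, among them with replicate 5 included (adjusted p 0.628).

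The test of the difference between the sexes at day 11 called 5 members, against 0.328% of genes in which the female effect was the higher and 0.467% in which it was the lower. Besides Spon2 and Pfkfb2, these were raised ranks 13 and 33 and lowered rank 40. Of the 5, Pfkfb2 alone was called with replicate 5 included (adjusted p 0.0798, edgeR). Raised rank 33 had an adjusted p of 0.0993 and was not called in 21 of 25 alternatives. Raised rank 13 was called in 24 of 25 and lowered rank 40 in 22 of 25. Raised rank 13 had 12.6, 19.0, 20.7 and 26.8 normalized counts in saline-treated females and 59.3, 62.0, 70.7, 93.6 and 106 in methamphetamine-treated females. In males it ranged from 60.8 to 134 with saline and from 94.2 to 122 with methamphetamine. The change was 1.96 ± 0.23 in females (adjusted p 6.97e-05) and 0.04 ± 0.18 in males, and the difference between them was 1.91 ± 0.32 (adjusted p 0.00575, edgeR). Lowered rank 40 changed by -1.22 ± 0.16 in females and -0.11 ± 0.15 in males, with an adjusted p of 0.0408 for the difference in edgeR. Treatment and rat number range are confounded in males at day 11, so drug and number range cannot be told apart in these differences.

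Levels after abstinence were also set against those at day 11. In saline-treated females, raised members were lower after abstinence than at day 11 by a median of 0.17 on the log2 scale, with 37 of 50 lower, against 4883 of 10408 ranked genes. In saline-treated males the median of raised members was -0.04, with 27 of 50 lower. Lowered members had a median of 0.06 in saline-treated females, with 29 of 50 higher. In saline-treated males it was 0.14, with 40 of 50 higher, against 5237 of 10408 ranked genes. In methamphetamine-treated rats the medians of raised members moved by 0.01 in females and 0.00 in males, and those of lowered members by -0.11 and -0.04. Time point and sequencing pool cannot be told apart in these values. Saline-treated males all came from the lower rat number range at day 11 and all from the higher after abstinence. In these males, time point and number range cannot be told apart either. Members of 1 set varied together more after abstinence, with a median pairwise r of 0.32 for raised and 0.39 for lowered members over 20 libraries. At day 11 these medians were 0.09 and 0.10 over 19 libraries. The values after abstinence were used to choose the members.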

How the data were processed

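The authors deposited 2 tables of 47 libraries: reads per Ensembl gene as a raw count, and a normalized signal, which is the same count divided by 1 size factor per library. Per the labels and the study's methods, the authors used Trimmomatic 0.38, HISAT2 2.1.0 against Rnor_6.0, GenomicAlignments and DESeq2 1.20.0. Libraries were grouped by labelled sex, treatment and time point. The rule and printed levels used normalized counts. Tests used raw counts in edgeR 4.0.16 (R 4.3.3) with TMM, filterByExpr, quasi-likelihood tests and Benjamini-Hochberg adjustment over all genes tested, called at an adjusted p under 0.1. The SE was computed as the log2 fold change divided by the square root of F. p-values set each difference against the spread between rats, which were taken as independent. Litter is not in the labels and was not a term of the fits. The tests were tried on simulated counts. Symbols of 328 genes came from the study's tables, and promoters from RefSeq (GRCr8). Members and lists were chosen with earlier results of these data known. Named were members leading the rule, next to its limit, called at day 11 or on a fixed list, with at most 2 identifiers printed per set. Alternatives were DESeq2 1.42.0, RLE factors, no filter, all groups in 1 fit, a replicate block, replicate 5 included and each library left out. Leaving abstinence libraries out of the rule was added after the data were seen. No 2 libraries of a group were alike within counting error (115 pairs). 1 library of saline-treated females at day 11 was not analysed here.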

Additional observations from a re-analysis of the deposited data

Results flagged for a closer look

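Some single libraries lay far from the rest of their group, judged by the gap to the nearest library relative to the range of the group. In 72 groups of 4 or 5 libraries of the 9 members named by symbol or identifier, 6 libraries were found, and chance gives about 1 in 20 groups. Spon2 was 33.5 normalized counts in male methamphetamine replicate 3 after abstinence, below the others. Pfkfb2 was 1046 (1045.5) in female saline replicate 4 at day 11. ENSRNOG00000022637 was 121 (120.7) in male methamphetamine replicate 1 at day 11. ENSRNOG00000047706 was 220 (219.6) in female methamphetamine replicate 6 after abstinence and 229 (228.5) in male methamphetamine replicate 6 at day 11. ENSRNOG00000014011 was 570.3 in female methamphetamine replicate 6 at day 11.

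The effect of methamphetamine at day 11, females minus males, passed the test of the difference itself for 5 members in edgeR. On the log2 scale it was 1.91 for raised rank 13 (adjusted p 0.00575), 0.65 for raised rank 33 (adjusted p 0.0993), -1.15 for Spon2 (adjusted p 0.0592), -0.83 for Pfkfb2 (adjusted p 0.0314) and -1.11 for lowered rank 40 (adjusted p 0.0408). Raised rank 33 was not called in 21 of 25 alternatives, Spon2 in 10, lowered rank 40 in 3, and raised rank 13 and Pfkfb2 in 1 each. With replicate 5 included, 0 raised members were called for this difference. Treatment and rat number range are confounded in its male part and cannot be told apart.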

How the results depend on the processing

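With replicate 5 included, the genes called at day 11 went from 1319 to 581 in females, 908 to 0 in males, 2899 to 1047 in both sexes and 114 to 17 for the difference between sexes. Raised members called then numbered 6, 0, 3 and 0 in that order, and lowered members 7, 0, 7 and 1, against 11, 6, 18 and 2 raised and 11, 5, 10 and 3 lowered. With all groups in one fit, 839 genes were called in females, and 4, 1, 11 and 1 raised members. DESeq2 called 1500 genes and 13 raised members in males, and 188 genes for the difference. RLE factors and no low-count filter each left 1 raised member called for the difference. The rule selected 24 raised and 32 lowered members again with replicate 5, 30 and 31 at a correlation limit of 0.4, and 21 and 21 at a lowest mean of 20.

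With 1 library left out, calls ranged from 990 to 1411 genes in females, 153 to 1442 in males, 1886 to 3254 in both sexes and 67 to 262 for the difference. Raised members called ranged from 6 to 12, 1 to 12, 8 to 22 and 1 to 3, and lowered members from 8 to 12, 2 to 8, 7 to 13 and 1 to 4. In both sexes the raised count was 8 without female saline replicate 2 and 11 without female methamphetamine replicate 3 or male methamphetamine replicate 2. In females it was 6 without saline replicate 1 and 7 without methamphetamine replicate 3. In males it was 1 without methamphetamine replicate 1 or 2, 2 without 4, 3 without 6, 12 without saline replicate 3 and 11 without 4. The lowered count in males was 2 without saline replicate 2 or methamphetamine replicate 1, 2, 4 or 6, 3 without saline replicate 6, and 8 without saline replicate 3 or 4. The rule kept 28 to 45 raised and 26 to 44 lowered members. The cause of these shifts was not tested.

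Same-numbered libraries correlated by -0.03 to 0.12 in females and -0.10 to 0.08 in males in their deviations from group means, so the numbers were not taken as pairing. With a replicate block, 902, 1281, 3448 and 90 genes, 8, 15, 24 and 1 raised members and 8, 7, 11 and 1 lowered members were called, in the order above.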
